A study of Mus musculus with 4 samples.

Results

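The genes examined here were 40 endothelial cell genes of blood and lymphatic vessels, taken from a list of gene names. All 40 were found among the 22556 genes of the table, and all 40 passed the filter of a mean of 0.5 FPKM, as did 13770 of all genes. FPKM stands for fragments per kilobase of transcript, scaled to the mapped reads of the library, so that levels can be set side by side between genes. They comprised 14 surface and adhesion genes, 6 receptors for VEGF, semaphorins and angiopoietins, 8 other receptors and secreted factors, 2 enzymes, 3 arterial Notch and ephrin genes, the lymphatic surface gene Lyve1 and 6 transcription factors.

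Whole lungs were taken at embryonic day (E) 16.5 from 2 genotypes, with 2 RNA sequencing libraries each. Control embryos were Shh-Cre; Stk11F/+, with 1 floxed allele of the kinase gene Stk11, and Shh-Stk11 embryos were Shh-Cre; Stk11F/F. All 4 libraries thus came from embryos with the Cre driver and at least 1 floxed allele, and no Cre-negative lung was included. Shh-Cre recombines in endodermal progenitors, so that endothelial cells, which descend from mesoderm, were not the cells in which Stk11 was deleted. C57BL/6 was the strain in the labels, mixed backgrounds were described in the study's methods, and neither litter nor sex was stated in the labels.

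Endothelial cells line every blood and lymphatic vessel. They are held together by junction proteins, respond to VEGF and angiopoietins through receptor tyrosine kinases, and take arterial, venous, capillary or lymphatic identity under transcription factors of the ETS, SOX and other families. In the fetal lung a plexus of capillaries grows around the branching epithelium, which secretes VEGF. The comparison asked how the RNA of these vessels stood in lungs whose epithelium had lost Stk11.

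Stk11 itself was at 44.0 and 45.5 FPKM in the Control libraries and at 29.5 and 26.0 FPKM in the Shh-Stk11 libraries (log2 fold change -0.69, SE 0.125, limma adjusted p 0.0499). The fold change was negative in all 15 alternatives, but the adjusted p passed 0.05 in only 2 of them and reached 0.267 at most. Between 30.8 and 37.8 M reads per library were recovered from the low values. The library Shh-Stk11 2 was male by its Y-linked Ddx3y, at 23.5 FPKM, whereas the other 3 held at most 0.0285 FPKM. The median absolute log2 difference between replicates over all tested genes was 0.18 in Control and 0.16 in Shh-Stk11.

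Most endothelial genes were at a slightly lower level in Shh-Stk11 lungs, and none passed the threshold on its own. The log2 fold change, Shh-Stk11 minus Control on the log2(FPKM + 0.1) scale, was negative for 35 of the 40 genes, against 58.3% of all tested genes. The signs of all 40 were the same after quantile normalization, after median-ratio scaling and after removal of a trend with transcript length and GC content, but 9 of the 35 turned positive when the libraries were scaled to 15 other endothelial genes. The median was -0.27, compared with -0.05 over all tested genes. At a limma adjusted p under 0.05, 0 of the 40 were lower and 0 were higher, where 1.29% of all tested genes were lower and 0.98% higher. At an unadjusted p under 0.05, 10 endothelial genes (25%) were lower and 0 higher, where the same threshold took in 7.18% and 8.04% of all tested genes. Without Control 1 this count of 10 was 3 and the median was -0.17, and without Shh-Stk11 1 the count was 1. Both Shh-Stk11 libraries lay below both Control libraries for 26 genes (65%), against 27.6% of all tested genes, and above both for Prox1 alone, against 19.2%.

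The summed level of the 40 genes was 1968 and 1740 FPKM in the Control libraries and 1424 and 1530 FPKM in the Shh-Stk11 libraries. In whole-organ RNA on this relative scale, fewer endothelial cells, less of these transcripts per cell and a larger share of RNA from other cells cannot be told apart. The Control libraries differed from each other in these genes. Control 1 was above Control 2 for 36 of the 40 genes, by a median log2 difference of 0.21, whereas over all tested genes the median difference was -0.02. Control 1 held the highest of the 4 values for 33 genes. The Shh-Stk11 libraries were nearer to each other, with a median log2 difference of -0.04 and Shh-Stk11 1 above Shh-Stk11 2 for 18 genes. Set against Control 2, Shh-Stk11 1 was lower by a median of -0.12 and Shh-Stk11 2 by a median of -0.16 on the log2 scale, each for 30 of the 40 genes. Set against Control 1, the medians were -0.36 and -0.38, each for 37 genes. The gap between the Control replicates was thus larger than the gap from either Shh-Stk11 library to Control 2.

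**Figure D1:**
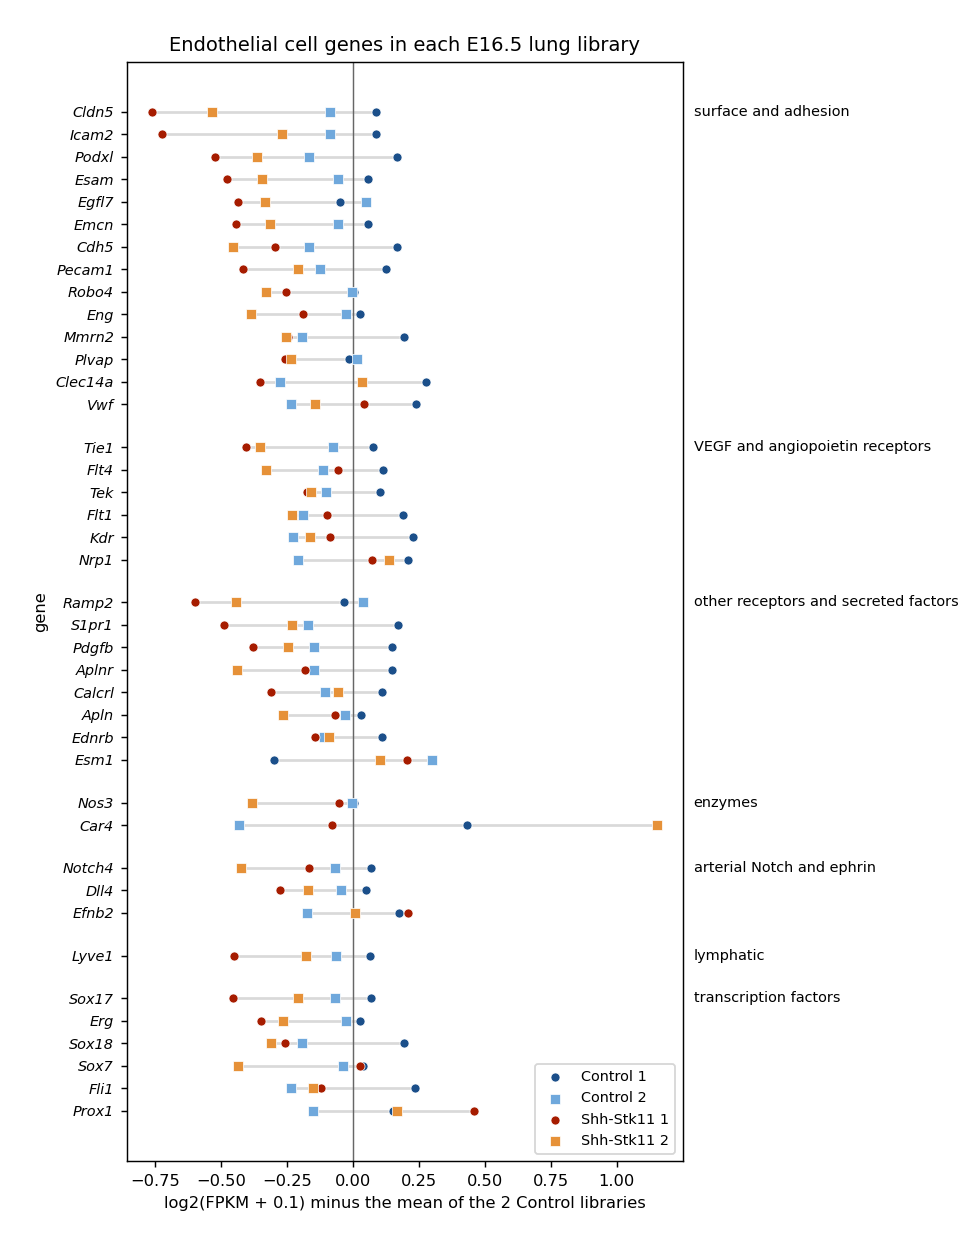
Level of the 40 endothelial cell genes in each of the 4 libraries, as log2(FPKM + 0.1) minus the mean of the 2 Control libraries, grouped by role; each marker is 1 library and the grey line spans the 4. Control 1 is the highest of the 4 for 33 genes, and Car4 stands out by its single high value of 9.32 FPKM in Shh-Stk11 2.

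The surface and adhesion genes held 7 of the 10 genes that were lower at an unadjusted p under 0.05. All 14 had a negative log2 fold change, with a median of -0.34. The 7 genes made up 50% of the 14, against 7.18% of all tested genes, 0 passed the adjusted threshold, against 1.29%, and the groups did not overlap for 12, against 27.6%. Cldn5 encodes claudin-5, the main tight junction strand protein of endothelium. It was at 127 and 112 FPKM in the Control libraries and at 70.4 and 82.5 FPKM in the Shh-Stk11 libraries. Both Shh-Stk11 values were below both Control values, and its log2 fold change of -0.65 (95% interval -0.995 to -0.302) was the most negative of the 40, with an unadjusted p of 0.00341 and a limma adjusted p of 0.0832. Cldn5 was also the only one of the 40 that stayed lower at an unadjusted p under 0.05 whichever single library was left out, with log2 fold changes between -0.76 and -0.53.

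Icam2, an adhesion receptor for leukocytes at endothelial junctions, was at 89.3 and 79.2 FPKM in Control and at 50.9 and 69.7 FPKM in Shh-Stk11 (log2 fold change -0.50, SE 0.179). Podxl, which encodes the sialylated surface protein podocalyxin, was at 64.1 and 50.9 FPKM in Control and at 39.7 and 44.3 FPKM in Shh-Stk11 (log2 fold change -0.44, SE 0.153). Esam, a junctional adhesion molecule of the immunoglobulin superfamily, was at 80.3 and 74.1 FPKM in Control and at 55.4 and 60.7 FPKM in Shh-Stk11 (log2 fold change -0.41, SE 0.126). In each of the 3 genes Shh-Stk11 1 was the lowest library and Control 1 the highest, without overlap of the groups. The log2 fold change was -0.27 for Icam2 without Shh-Stk11 1 and -0.28 for Podxl without Control 1, whereas that of Esam lay between -0.48 and -0.35 whichever library was left out.

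Egfl7, a protein that endothelial cells secrete into their matrix, was at 126 and 134 FPKM in Control and at 96.0 and 103 FPKM in Shh-Stk11 (log2 fold change -0.38, SE 0.128). Emcn, which encodes the capillary and venous sialomucin endomucin, was at 121 and 112 FPKM in Control and at 85.6 and 93.5 FPKM in Shh-Stk11 (log2 fold change -0.38, SE 0.130). Robo4, a receptor that restrains vessel leakage, was at 15.0 and 14.9 FPKM in Control and at 12.5 and 11.9 FPKM in Shh-Stk11 (log2 fold change -0.29, SE 0.119). The groups did not overlap in any of the 3, the Control values of Robo4 lay close together, and Egfl7 was higher in Control 2 than in Control 1. The limma adjusted p of these 6 genes ranged from 0.181 for Esam to 0.315 for Robo4.

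The adhesion genes in widest use as endothelial markers were less clear. Pecam1, the junction protein CD31, was the most abundant of the 40 and was at 196 and 165 FPKM in Control and at 135 and 156 FPKM in Shh-Stk11 (log2 fold change -0.31, 95% interval -0.690 to 0.0634, limma adjusted p 0.418). Cdh5, the adherens junction cadherin VE-cadherin, was at 115 and 91.0 FPKM in Control and at 83.2 and 74.4 FPKM in Shh-Stk11 (log2 fold change -0.38, limma adjusted p 0.331). Neither gene's groups overlapped, but the distance between the Control values was larger than that from Control 2 to the nearest Shh-Stk11 library. Without Control 1 the log2 fold change was -0.19 for Pecam1 and -0.21 for Cdh5. Eng, a coreceptor for TGF-beta family ligands, Mmrn2, a matrix glycoprotein, and Plvap, the diaphragm protein of fenestrae and caveolae, had log2 fold changes between -0.29 and -0.25 without overlap. Clec14a, a C-type lectin, ranged from 29.0 to 45.0 FPKM, and Vwf, the clotting factor stored in endothelial granules, from 3.72 to 5.20 FPKM, both with overlapping groups.

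For the 4 genes of lowest unadjusted p whose upstream sequence was in the RefSeq table (GRCm38.p6), the 250 bases before the annotated start are shown, because endothelial promoters are known to be read by ETS factors such as ERG and FLI1, both among the 40 genes. Windows were found for 22 of the 40 genes. Capitals mark the ETS core AGGAAG or its reverse complement CTTCCT, and each sequence runs 5′ to 3′ towards the gene, with the window at chr16:18776597-18776846 on the plus strand for Cldn5, chr4:118489850-118490099 on the minus strand for Tie1, chr2:26580833-26581082 on the plus strand for the first of the 3 Egfl7 starts in that table and chr3:137340828-137341077 on the plus strand for Emcn.
Cldn5: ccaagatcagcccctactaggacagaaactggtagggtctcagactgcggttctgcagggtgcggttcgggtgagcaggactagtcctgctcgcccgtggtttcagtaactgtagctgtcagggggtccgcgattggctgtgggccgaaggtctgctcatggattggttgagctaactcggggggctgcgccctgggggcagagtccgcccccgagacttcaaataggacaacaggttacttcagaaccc
Tie1: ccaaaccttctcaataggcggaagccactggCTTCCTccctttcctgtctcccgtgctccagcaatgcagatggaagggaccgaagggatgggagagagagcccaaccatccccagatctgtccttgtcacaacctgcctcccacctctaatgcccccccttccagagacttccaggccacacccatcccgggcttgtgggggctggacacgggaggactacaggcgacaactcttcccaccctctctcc
Egfl7: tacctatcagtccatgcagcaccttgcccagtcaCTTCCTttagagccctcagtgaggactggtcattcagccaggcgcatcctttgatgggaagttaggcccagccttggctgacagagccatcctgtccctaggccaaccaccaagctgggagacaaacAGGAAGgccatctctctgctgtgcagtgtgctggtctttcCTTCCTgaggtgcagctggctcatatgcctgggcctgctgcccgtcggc
Emcn: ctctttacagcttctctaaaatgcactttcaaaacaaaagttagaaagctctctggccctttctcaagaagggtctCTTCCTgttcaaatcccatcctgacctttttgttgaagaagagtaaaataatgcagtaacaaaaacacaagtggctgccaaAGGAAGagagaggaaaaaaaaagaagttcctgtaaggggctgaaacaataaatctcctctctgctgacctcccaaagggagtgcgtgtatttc
The core was absent from the window of Cldn5, present 1 time in that of Tie1, 3 times in that of Egfl7 and 2 times in that of Emcn. Over both strands it was found in 10 of the 22 windows (45.5%) and in 29.2% of all 27025 windows. Each gene symbol entered with the first start listed in the table only, so a core at another start was not counted. The SOX core ACAATG (reverse complement CATTGT) was in 2 of the 22 windows (9.09%) and in 11.0% of all. The E-box CANNTG was in 13 of the 22 (59.1%) and in 66.0% of all. None of the 3 motifs contains another, although neighbouring matches can share letters, and a match describes the sequence only. The genes without a window were Aplnr, Cdh5, Esam, Fli1, Icam2, Lyve1, Mmrn2, Nos3, Pdgfb, Pecam1, Plvap, Podxl, Ramp2, S1pr1, Sox17, Sox18, Sox7 and Vwf.

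Of the 6 receptors for VEGF and angiopoietins 5 were negative, with a median log2 fold change of -0.17. This median was -0.02 without Control 1 and -0.33 without Control 2, and with the trend over length and GC content removed it was -0.19, beside -0.24 for the surface genes. The groups did not overlap, lower in Shh-Stk11, for 2 of the 6 (33.3%), near the 27.6% of all tested genes. Tie1, the orphan partner of the angiopoietin receptor, was at 50.1 and 45.1 FPKM in Control and at 35.8 and 37.2 FPKM in Shh-Stk11. Its Shh-Stk11 values were near each other and below both Control values (log2 fold change -0.38, SE 0.122, unadjusted p 0.0192, limma adjusted p 0.200). Tek, the angiopoietin receptor TIE2, was at 27.5 and 23.8 FPKM in Control and at 22.7 and 22.9 FPKM in Shh-Stk11 (log2 fold change -0.17, 95% interval -0.473 to 0.139). Tek showed no overlap, but Control 2 was nearer to both Shh-Stk11 libraries than to Control 1.

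Kdr, the main signalling receptor for VEGF-A, was at 51.9 and 37.8 FPKM in Control and at 41.6 and 39.5 FPKM in Shh-Stk11 (log2 fold change -0.13, 95% interval -0.539 to 0.285). Flt1, which binds VEGF-A tightly and acts largely as a decoy, was at 9.65 and 7.41 FPKM in Control and at 7.89 and 7.18 FPKM in Shh-Stk11 (log2 fold change -0.17, 95% interval -0.569 to 0.236). Nrp1, a coreceptor for VEGF and semaphorins that mesenchymal cells and neurons also make, was at 63.9 and 47.9 FPKM in Control and at 58.1 and 60.9 FPKM in Shh-Stk11 (log2 fold change 0.10, 95% interval -0.291 to 0.499). In all 3 the Control replicates lay farther apart than the Shh-Stk11 replicates, and the groups overlapped. Without Control 1 the log2 fold change was 0.10 for Kdr and 0.02 for Flt1, and without Control 2 that of Nrp1 was -0.10. The ratio of Kdr to Flt1 stayed between 5.10 and 5.50 in the 4 libraries, and that of Tie1 to Tek was 1.82 and 1.89 in Control and 1.58 and 1.63 in Shh-Stk11. These pairs were chosen after their values were seen, and their ratios are given as descriptions.

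Among the other receptors and secreted factors, 7 of 8 were negative, with a median log2 fold change of -0.25 (-0.15 without Control 1, -0.37 without Control 2), and Ramp2 stood lowest. RAMP2 is the accessory protein that turns the receptor encoded by Calcrl into a receptor for adrenomedullin. Ramp2 was at 170 and 179 FPKM in Control and at 115 and 128 FPKM in Shh-Stk11. Its replicates lay close together in both genotypes and did not overlap (log2 fold change -0.52, 95% interval -0.845 to -0.198, unadjusted p 0.00707, limma adjusted p 0.119). Calcrl was at 57.9 and 49.8 FPKM in Control and at 43.2 and 51.7 FPKM in Shh-Stk11, with overlap (log2 fold change -0.18). The ratio of Ramp2 to Calcrl, likewise chosen after the values were seen, was 2.94 and 3.60 in Control and 2.67 and 2.48 in Shh-Stk11. The direction of this ratio depended on the processing, since with the trend over length and GC content removed Calcrl (-0.48) was the more negative of the pair and Ramp2 was at -0.33.

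S1pr1, the sphingosine 1-phosphate receptor that stabilizes vessels, was at 42.7 and 33.7 FPKM in Control and at 27.0 and 32.3 FPKM in Shh-Stk11 (log2 fold change -0.36, limma adjusted p 0.377). Pdgfb, which endothelial cells secrete to recruit pericytes, and Aplnr, the receptor for apelin, each had a log2 fold change of -0.31 without overlap. Apln, the ligand apelin of endothelial tip cells, was at 10.3 and 9.87 FPKM in Control and at 9.61 and 8.37 FPKM in Shh-Stk11. Ednrb, an endothelin receptor, overlapped between 72.1 and 86.2 FPKM. Esm1, a secreted proteoglycan of tip cells, was the second lowest of the 40 in level, at 1.33 and 2.07 FPKM in Control and at 1.93 and 1.79 FPKM in Shh-Stk11 (log2 fold change 0.15, 95% interval -0.464 to 0.774). The low Control 1 value decided the sign of Esm1, whose log2 fold change was -0.15 without that library.

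The enzymes did not share a sign. Nos3, the endothelial nitric oxide synthase, was at 5.13 and 5.09 FPKM in Control and at 4.92 and 3.89 FPKM in Shh-Stk11 (log2 fold change -0.22, SE 0.168). Car4, a membrane carbonic anhydrase of a subset of lung capillary cells, was at 5.62 and 3.04 FPKM in Control and at 3.91 and 9.32 FPKM in Shh-Stk11. Its highest value was in Shh-Stk11 2 and its lowest in Control 2, and the groups overlapped (log2 fold change 0.54, 95% interval -0.522 to 1.60, limma adjusted p 0.621). The most positive value of the 40 therefore rested on Shh-Stk11 2, the male library. Without it the log2 fold change of Car4 was -0.08, and without Shh-Stk11 1 it was 1.15 (unadjusted p 0.0150, limma adjusted p 0.264). The part of sex in this value was not tested.

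The arterial genes did not share a sign. Notch4, an endothelial Notch receptor, was at 6.12 and 5.56 FPKM in Control and at 5.18 and 4.32 FPKM in Shh-Stk11 (log2 fold change -0.30, SE 0.158). Dll4, its tip cell and arterial ligand, was at 12.3 and 11.5 FPKM in Control and at 9.80 and 10.6 FPKM in Shh-Stk11 (log2 fold change -0.22). Neither overlapped, and neither reached an unadjusted p of 0.05. Efnb2, the arterial ephrin ligand that mesenchymal cells also make, was at 23.5 and 18.4 FPKM in Control and at 24.0 and 20.9 FPKM in Shh-Stk11 (log2 fold change 0.11, 95% interval -0.277 to 0.491). Without Control 2 its log2 fold change was -0.067, so that the sign of Efnb2 rested on that library.

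The lymphatic genes differed in sign. Lyve1, a hyaluronan receptor of lymphatic vessels and also of some macrophages, was at 71.9 and 65.8 FPKM in Control and at 50.3 and 60.8 FPKM in Shh-Stk11 (log2 fold change -0.31, 95% interval -0.658 to 0.0298, limma adjusted p 0.376). Without Shh-Stk11 1 the log2 fold change of Lyve1 was -0.18, and without Shh-Stk11 2 it was -0.45. Flt4, the VEGF-C receptor VEGFR3, was at 7.28 and 6.20 FPKM in Control and at 6.45 and 5.33 FPKM in Shh-Stk11, with overlap (log2 fold change -0.19, 95% interval -0.587 to 0.202). Prox1, the transcription factor that specifies lymphatic endothelium, was the lowest of the 40 in level, at 0.621 and 0.483 FPKM in Control and at 0.791 and 0.627 FPKM in Shh-Stk11. Prox1 was the only one of the 40 with both Shh-Stk11 values above both Control values, by a narrow margin over Control 1, and its log2 fold change of 0.31 had a 95% interval of -0.456 to 1.08. Its estimated reads were between 117 and 188 per library, so counting error adds to its spread. The same holds for Esm1, at 94.7 to 123 estimated reads, and for Car4, at 100 to 325.

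Of the transcription factors, 5 of 6 were negative, with a median log2 fold change of -0.24 (-0.13 without Control 1). Erg, an ETS factor that maintains endothelial identity, was at 24.2 and 23.3 FPKM in Control and at 18.6 and 19.7 FPKM in Shh-Stk11. Its replicates were close in both genotypes and did not overlap (log2 fold change -0.31, SE 0.117, unadjusted p 0.0375, limma adjusted p 0.284). Fli1, the related ETS factor that blood cells also express, overlapped between 11.1 and 15.4 FPKM. The SOXF factors, which act in arterial and lymphatic specification, had log2 fold changes of -0.33 for Sox17, -0.28 for Sox18 and -0.21 for Sox7. Sox17 was at 19.2 and 17.4 FPKM in Control and at 13.3 and 15.8 FPKM in Shh-Stk11, and Sox18 was likewise without overlap, whereas Sox7 overlapped.

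The size of the difference followed transcript length and GC content, in these genes as in all genes. Across the 40 genes the Spearman correlation of the log2 fold change was 0.40 with transcript length and -0.42 with GC content, and across 13633 tested genes with an annotated transcript it was 0.37 and -0.36. Genes are not independent replicates, and all of these values come from the same 4 libraries, so no test is attached. The 8 endothelial genes with transcripts under 2000 bases, which included Cldn5, Ramp2, Icam2, Esam and Egfl7, had a median log2 fold change of -0.40, beside -0.17 for the 3057 tested genes of that length. The 32 longer ones had a median of -0.22, beside -0.02. That length limit was chosen after the values were seen. With the trend over length and GC content removed, the median of the 40 was -0.20, beside -0.002 over all genes. In that fit 9 endothelial genes were lower and 0 higher at an unadjusted p under 0.05 (7.22% and 7.28% of all tested genes were), 0 passed the adjusted threshold, and the leading genes were in part different. Emcn was then at -0.50 (unadjusted p 0.00502, limma adjusted p 0.128), Calcrl at -0.48, Podxl at -0.44, Cldn5 at -0.43 and Ramp2 at -0.33, whereas Icam2, Esam and Erg no longer reached an unadjusted p of 0.05.

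**Figure D2:**
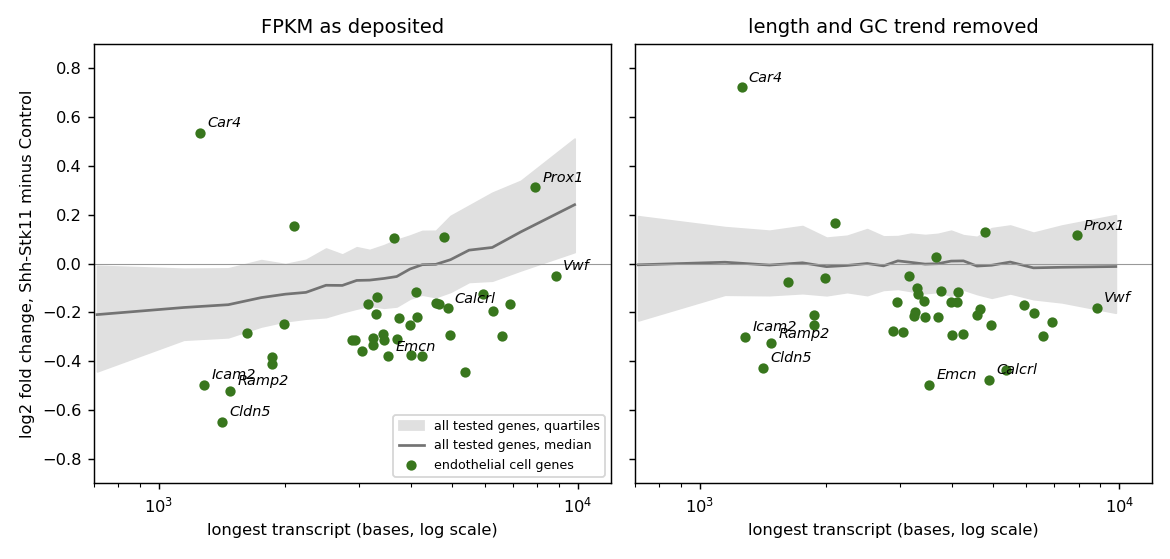
Log2 fold change (Shh-Stk11 minus Control) against transcript length in bases (log scale) for the 40 endothelial cell genes, before and after the trend with length and GC content across all tested genes was removed; the grey line and band are the median and quartiles of all tested genes. The 8 genes under 2000 bases have a median of -0.40 before and -0.23 after removal.

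Other genes of the vascular compartment were read from lists that did not include the 40. Their counts stand against 58.3% negative, 7.18% lower and 8.04% higher at an unadjusted p under 0.05 over all tested genes. Of 15 other pan-endothelial genes, 11 (73.3%) were negative, with a median of -0.32 and 6 (40%) lower and 1 (6.67%) higher at an unadjusted p under 0.05. They were led by Rasip1, a regulator of vessel lumen formation (log2 fold change -0.43), Lyl1, a blood and endothelial transcription factor (-0.53), and Bcl6b, an endothelial repressor (-0.43), with limma adjusted p between 0.148 and 0.166. The one on the other side was Gpr116, named after its value was seen, a receptor that epithelium also makes (log2 fold change 0.50, limma adjusted p 0.197). Of 13 further capillary genes 12 (92.3%) were negative and 4 (30.8%) lower at an unadjusted p under 0.05, with a median of -0.36 and with Tbx2 (-0.37), Ace (-0.47) and Fibin (-0.39) first. Of 17 arterial and venous genes 12 (70.6%) were negative and 2 (11.8%) lower at that threshold, both nearer to the shares over all tested genes, with a median of -0.22. These were Jag2, a Notch ligand (-0.51), and Acvrl1, the receptor ALK1 (-0.38), with Gja4, the arterial connexin 37 (-0.28), next in order. In none of these 3 lists did a gene pass the adjusted threshold. With the trend over length and GC content removed, 3 pan-endothelial, 3 capillary and 3 arterial and venous genes were lower at an unadjusted p under 0.05. In that fit 0, 0 and 1 were higher, and 7.22% of all tested genes were lower and 7.28% higher. Without Control 1 their medians were -0.21 for the pan-endothelial, -0.20 for the capillary and -0.10 for the arterial and venous genes, which were at -0.14 without Shh-Stk11 2.

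In the 2 remaining vascular lists 1 gene each passed it. Of 9 tested further lymphatic genes 7 were negative and 1 lower at an unadjusted p under 0.05, with a median of -0.17 that was -0.003 without Control 1, -0.035 without Shh-Stk11 2 and -0.33 without Control 2. Among them Pdpn, which encodes podoplanin, fell from 76.7 and 62.3 FPKM to 25.1 and 36.9 FPKM (log2 fold change -1.18, limma adjusted p 0.0464). Pdpn is also a gene of alveolar type 1 cells. The next lymphatic genes by p were Thy1 (log2 fold change -0.30) and Nr2f2 (-0.22), both also made outside lymphatic vessels. The call of Pdpn held in 4 of 15 alternatives and was lost, among others, without Control 1 (limma adjusted p 0.222) and after removal of the trend with length and GC content (0.0969). Of 16 tested vascular transcription factors 14 were negative and 3 lower at an unadjusted p under 0.05, with a median of -0.27 that was -0.020 without Control 1 and -0.36 without Control 2. Among them Tbx1, a T-box factor also made by other tissues of the embryo, fell from 5.28 and 6.29 FPKM to 3.09 and 2.55 FPKM (log2 fold change -1.01, limma adjusted p 0.0459). The call of Tbx1 held in 2 of 14 alternatives and was lost with any single library left out (limma adjusted p 0.0920 to 0.232). Lmo2, a partner of endothelial and blood cell factors, was at a log2 fold change of -0.43, and Foxf1a, a factor of lung mesenchyme and capillaries, at -0.36.

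The ligands of the receptors above did not share a direction. Their list also held the sphingosine kinase genes Sphk1 (log2 fold change -0.81) and Sphk2 (-0.15), which encode enzymes and no ligand. Of its 19 tested genes 13 (68.4%, against 58.3% of all tested genes) were negative and 6 positive, with a median of -0.17. At an unadjusted p under 0.05, 4 (21.1%), Sphk1 among them, were lower and 3 (15.8%) higher, against 7.18% and 8.04%, and 0 passed the adjusted threshold. With single libraries left out the median lay between -0.26 and -0.076. Vegfa was at 130 and 117 FPKM in Control and at 95.7 and 125 FPKM in Shh-Stk11, with overlapping groups (log2 fold change -0.17). Vegfc, the lymphatic growth factor, had a log2 fold change of -0.34 without overlap. The TIE2 agonist Angpt1 was at 0.33 and its context-dependent antagonist Angpt2 at -0.21 on the same scale, neither with overlap. Adm, the ligand of the CALCRL and RAMP2 receptor, was at -0.15 with overlap. The ligands with the smallest p were on the positive side. Calca, which encodes calcitonin and CGRP and marks neuroendocrine cells, was at 6.09 and 9.22 FPKM in Control and at 17.2 and 15.5 FPKM in Shh-Stk11 (log2 fold change 1.11, limma adjusted p 0.0532). The semaphorins Sema3a and Sema3c, ligands of neuropilin receptors, were at 0.58 and 0.41.

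The medians of pericyte genes and hypoxia targets changed sign with the library left out. Of 11 pericyte genes 6 were negative, 2 lower and 1 higher at an unadjusted p under 0.05, with a median of -0.05 (0.046 without Control 1, -0.22 without Control 2), led by Abcc9 (log2 fold change 0.60), Des (-0.45) and Cox4i2 (-0.46). Of 15 hypoxia targets 11 were negative and 1 lower at that threshold, with a median of -0.06 (0.12 without Control 1, -0.23 without Shh-Stk11 2), led by Egln3 (-0.59), Egln1 (-0.27) and Ddit4 (0.35).

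Genes of other cell types were read in the same libraries, where 58.3% of all tested genes were negative, 7.18% were lower and 8.04% were higher at an unadjusted p under 0.05. Of 14 mesenchymal genes 13 were negative, with a median of -0.29 and 6 lower at an unadjusted p under 0.05. Their summed level was 1108 to 1246 FPKM in Control and 928 to 1001 FPKM in Shh-Stk11. Summed levels of the lists were not scaled to the library totals, which were lower in both Shh-Stk11 libraries. Of 15 epithelial genes 13 were positive, with a median of 0.20 and 4 higher at that threshold. With the trend over length and GC content removed their median was 0.35 and 10 were higher. All the same, their summed level was lower, at 17368 to 19075 FPKM in Control and 9829 to 14122 FPKM in Shh-Stk11. That sum was carried by the surfactant gene Sftpc, and without it the other 14 genes summed to 1584 to 1650 FPKM in Control and 1824 to 2074 FPKM in Shh-Stk11. All 10 tested red blood cell genes were negative, with a median of -0.55, 6 lower at the unadjusted threshold and Hba-x past the adjusted one. With the trend over length and GC content removed 3 were lower, but Hbb-b1 and Hbb-b2, which had no annotated length, did not enter that fit. The summed level of the red blood cell genes was 12788 to 13235 FPKM in Control and 8276 to 9740 FPKM in Shh-Stk11. The call of Hba-x held in 11 of 15 alternatives and was lost, among others, without Control 1 (limma adjusted p 0.144) and without Control 2 (0.146). Of 10 tested immune genes 4 were negative and 2 were higher at the unadjusted threshold, with a median of 0.06 (-0.0094 without Shh-Stk11 2, 0.27 without Shh-Stk11 1). All 6 tested platelet genes were negative, 1 of them lower at that threshold, with a median of -0.32 (-0.18 without Shh-Stk11 2, -0.50 without Shh-Stk11 1). Of 6 mesothelial genes 4 were negative and 3 lower, with a median of -0.33. Of 10 alveolar type 1 genes, Pdpn included, 8 were negative, 4 lower and 1, Aqp5 (log2 fold change 1.38, limma adjusted p 0.131), higher. Their median was -0.42 (-0.18 without Shh-Stk11 1, -0.22 without Control 1, -0.63 without Control 2 and also without Shh-Stk11 2). All 7 tested heart muscle genes were negative, with a median of -0.86 (-0.26 without Control 2, -0.18 without Shh-Stk11 2, -1.54 without Shh-Stk11 1), and 0 were lower at an unadjusted p under 0.05. Heart muscle genes were highest in Control 2, at a summed 214 FPKM, and lowest in Shh-Stk11 2, at 40.8 FPKM. The part of these cell types in the levels of the endothelial genes was not tested.

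**Figure D3:**
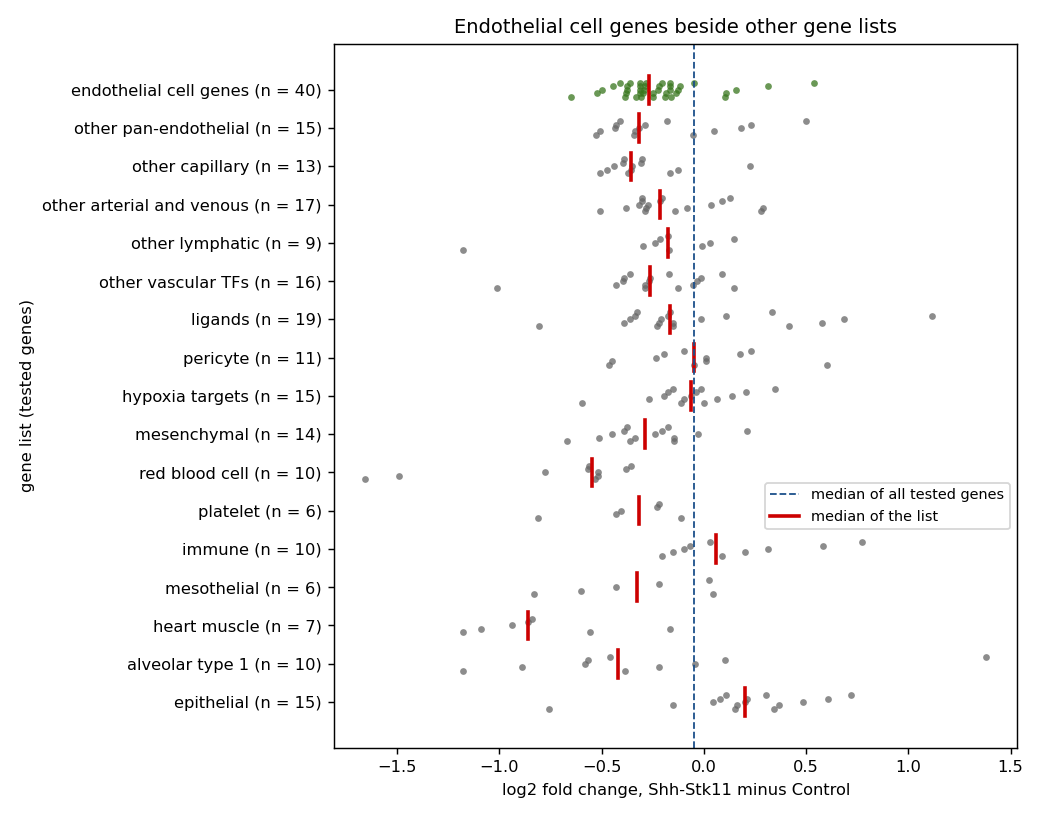
Log2 fold change (Shh-Stk11 minus Control) of the tested genes of each list; each point is 1 gene, the red bar is the list's median and the dashed line is the median of all tested genes at -0.05. The 40 endothelial cell genes, at -0.27, lie near the other vascular lists and the mesenchymal list, and the epithelial list lies on the positive side at 0.20.

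The levels of the 40 relative to other endothelial genes were compared last. When the libraries were scaled so that 15 other pan-endothelial genes had the same mean log2 level in each, the median over all tested genes moved from -0.05 to 0.14 and that of the 40 from -0.27 to -0.08. The 15 were the list above, of which 11 were negative before scaling. They included Gpr116 (log2 fold change 0.50), which epithelium also makes, and Lyl1 (-0.53), also a blood cell factor, so the scale was not set by endothelial RNA alone. At an unadjusted p under 0.05, 0 of the 40 were then lower (3.26% of all tested genes were) and 1 was higher (12.1%), namely Car4 (log2 fold change 0.72, unadjusted p 0.0130, limma adjusted p 0.131). Measured this way, Cldn5 was at -0.46 and Ramp2 at -0.33. The 15 genes themselves were at 0.14 and -0.14 in the Control libraries relative to their Control mean and at -0.23 and -0.15 in the Shh-Stk11 libraries, so that Control 2 and Shh-Stk11 2 nearly coincided. Single libraries mattered as well. Over the 4 fits with 1 library left out, the log2 fold changes of 10 genes, namely Cldn5, Ramp2, Esam, Egfl7, Emcn, Tie1, Erg, Robo4, Plvap and Dll4, stayed within 1.5 times of the value with all libraries, and those of the other 30 did not. Among the latter, S1pr1, Pdgfb and Aplnr were at -0.19, -0.16 and -0.16 without Control 1, Sox18 was at -0.089 and Mmrn2 at -0.055 without it, and Prox1 was at 0.16 without Control 2. Leaving out Control 1 left 3 of the 40 lower at an unadjusted p under 0.05, namely Cldn5, Egfl7 and Ramp2, and 0 higher, where 7.07% of all tested genes were lower and 7.25% higher. The median of the 40 was then -0.17. Leaving out Control 2 gave 14 lower and 0 higher (6.01% and 7.04% of all tested genes), with a median of -0.35. Leaving out Shh-Stk11 1 left Cldn5 alone lower and Car4 higher (4.69% and 5.97%), with a median of -0.25. Leaving out Shh-Stk11 2, the male library, gave 7 lower and 0 higher (6.86% and 6.41%), with a median of -0.26.

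**Figure D4:**
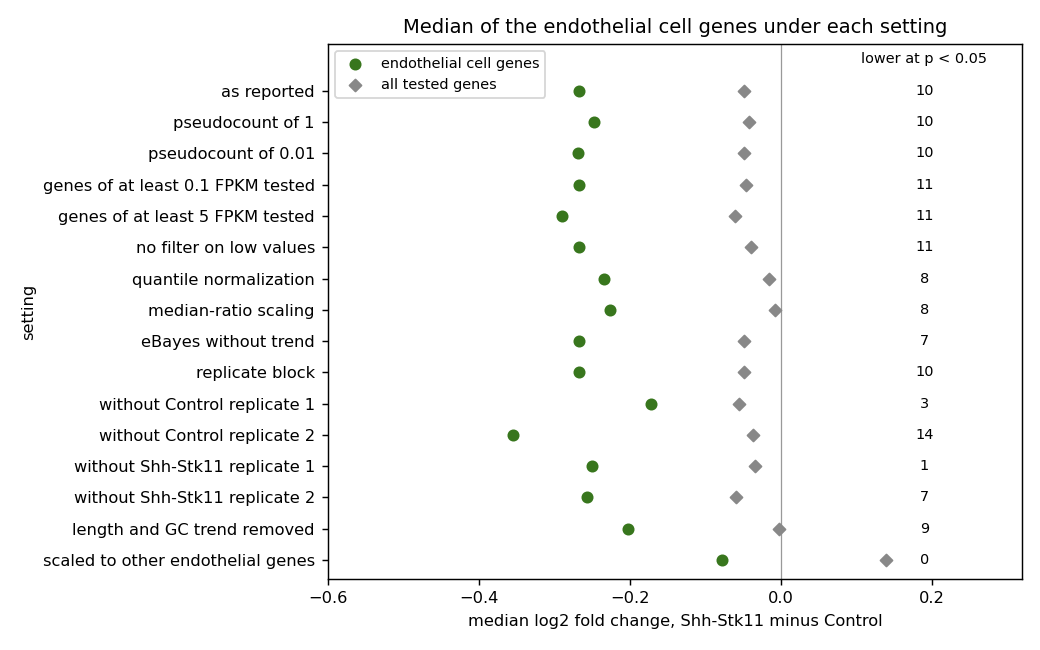
Median log2 fold change (Shh-Stk11 minus Control) of the 40 endothelial cell genes and of all tested genes under each setting; the numbers at the right count endothelial cell genes that were lower at an unadjusted p under 0.05. The median of the 40 stays below that of all genes in every setting shown and ranges from -0.35 to -0.08.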

How the data were processed

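RNA sequencing of whole E16.5 lungs covered 2 Control and 2 Shh-Stk11 libraries. The deposited table held FPKM values as made by the authors, without counts. TopHat2 2.0.13, Cufflinks 2.2.1 and the builds GRCm38 and mm9 are named in the submitters' processing notes, with no role given, so coordinates are printed only for RefSeq promoters (GRCm38.p6). All value columns belonged to a labelled library. Of the symbols, 20242 were found in GENCODE M21, 1917 more by way of synonyms, and 397 had no match. Length and GC content refer to the longest annotated transcript.

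Depth was read from the smallest steps of low FPKM values, of which 71.6% to 73.8% per library were whole reads within 0.06 reads (12% expected for random values). One read on 2000 bases was worth 0.0148 to 0.0181 FPKM. FPKM values are no counts, so no count model was used. Read numbers per gene are estimates, and depth covers counting error only.

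Tests were made with limma 3.58.1 in R 4.3.3 on log2(FPKM + 0.1), with genotype as the only term, for the 13770 genes whose mean reached 0.5 FPKM. eBayes moderation used a trend on mean level. Tests were two-sided, Benjamini-Hochberg adjustment ran over all tested genes, and the threshold was 0.05. The log2 scale with this pseudocount understates differences of low genes. Permuting 2 against 2 libraries exactly allows no p below 0.333. The study's methods describe at least 2 independent biological replicates, whereas the labels do not say that replicates were separate embryos. The p-values measure the spread between these libraries. The scripts were tested on simulated data. The length and GC trend was a loess fit (span 0.3) over tested genes. Other alternatives were pseudocounts, filters, normalizations, left-out libraries, scaling to other endothelial genes and a replicate block.

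The 40 genes and the other lists were chosen with earlier results of these data known, so neither is independent of them. By rule, values in every library were given for genes with an unadjusted p under 0.05, the 5 most negative and 5 most positive log2 fold changes, the 3 most abundant genes, and the receptors Flt4, Kdr, Flt1, Tek and Tie1 with Lyve1 and Prox1. From each vascular, pericyte, hypoxia and ligand list the 3 genes of smallest p were named, and among ligands also Vegfa, Angpt1, Angpt2, Adm and Vegfc. The same rule covered the lists of other cell types, which are summarised. Further genes with values in every library were added after their values were seen.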

Additional observations from a re-analysis of the deposited data

How the results depend on the processing

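Of 596 log2 fold changes of single endothelial genes under the alternatives, 575 kept their direction and their side of the adjusted threshold, and the other 21 reversed. In none of the settings did any of the 40 genes pass that threshold, the lowest limma adjusted p being 0.0671 for Cldn5 with the replicate numbers crossed and 0.0775 with a pseudocount of 0.01. With single libraries left out, 1 (without Shh-Stk11 1) to 14 (without Control 2) genes were lower at an unadjusted p under 0.05, against 10 with all libraries, 0 to 1 were higher, and the median lay between -0.35 and -0.17. Scaled to 15 other endothelial genes, 0 were lower, 1 was higher and the median was -0.078. That scaling reversed Kdr (0.063), Flt1 (0.022), Tek (0.023), Vwf (0.14), Apln (0.022), Clec14a (0.030), Calcrl (0.0063), Fli1 (0.054) and Ednrb (0.073). With single libraries left out, log2 fold changes that reversed ranged from -0.35 to 0.10 for Kdr, -0.35 to 0.022 for Flt1, -0.29 to 0.19 for Vwf, -0.44 to 0.12 for Clec14a, -0.37 to 0.099 for Fli1 and -0.15 to 0.46 for Esm1, all reversed without Control 1. Vwf (0.043) was also reversed without Shh-Stk11 2, and Clec14a (0.033) without Shh-Stk11 1. The range was -0.067 to 0.28 for Efnb2 and -0.10 to 0.31 for Nrp1, both reversed without Control 2, and -0.079 to 1.15 for Car4 and -0.44 to 0.025 for Sox7, both reversed without Shh-Stk11 2. The cause was not tested.

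Deviations of libraries with the same replicate number had a correlation of -0.11, so the numbers were not taken as pairs. With the replicate number as a block, 10 endothelial genes were lower and 0 higher at an unadjusted p under 0.05 (6.95% and 6.88% of all tested genes were), and 0 passed the adjusted threshold, as without it. Under the block the limma adjusted p was 0.154 for Stk11, 0.169 for Pdpn, 0.174 for Tbx1 and 0.0887 for Hba-x. With the numbers crossed, an alternative chosen after seeing the data, 10 were lower and 1 was higher (8.31% and 9.59% of all tested genes). The number of libraries, 2 per genotype, limits what can be resolved. With a replicate left out, the lone library is assumed to vary like the others.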
